A study of Capsicum annuum with 5 samples.

Results

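The microRNAs (miRNAs) of open flowers and of fruit were compared in pepper (Capsicum annuum, inbred line Zunla 1). Every line of the deposited miRNA annotation that gives a mature sequence on the 5′ or the 3′ arm of a hairpin was taken, 314 lines in all. These lines held 245 distinct sequences in 64 families, each sequence taken once per family. Of them, 166 sequences in 52 families had at least 1 tag in flower or fruit, and 108 sequences in 47 families had 10 tags or more over both libraries and entered the counts below. Flower and fruit are 2 of the 5 small RNA libraries of the study, beside root, stem and leaf.

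The flower library came from fully open flowers of mature plants. The fruit library has conflicting labels: the sample label says mature green, while the study's design text has self-pollinated fruit taken when turning red. The stage is therefore not given here and the library is called fruit. Both tissues are of the same inbred line and no treatment is recorded. Trizol was used to isolate total RNA, which went into an Illumina small RNA library kit and was read on a HiSeq2000. The extraction text names root samples for all tissues, and growth temperature and light are recorded for root, stem and leaf only. The number of plants behind each library is not stated. Each tissue has 1 library, so no difference has a replicate check and no test was made. Intervals below are 95% intervals that cover counting error only.

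Plant miRNAs are cut from hairpin RNAs by the enzyme DCL1 as a duplex of 2 short strands. The guide strand is loaded into an ARGONAUTE protein, mostly AGO1, and directs it to messenger RNAs with a closely matching site, while the passenger strand is mostly degraded. Many of the old plant families act on transcription factors that set the age of shoots, the identity of floral organs, the growth of ovules and fruit, and the response to auxin.

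The sequences that differ most between flower and fruit, or that differ unlike their relatives, are given first, 5′ to 3′, with T for U as in the annotation. Capitals mark the seed, bases 2 to 8 from the 5′ end. The first set is the guide strand of miR156, which targets SPL transcription factors and is known for keeping plants in the juvenile phase.
miR156a-5p: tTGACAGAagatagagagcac
miR156d-5p: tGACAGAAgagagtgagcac
miR156h-5p: tTGACAGAagagagtgagcat

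The second set holds relatives that lay on opposite sides of the comparison, namely miR390, which directs cleavage of TAS3 transcripts, miR172, which acts on AP2-like floral regulators, and miR482, which acts on NLR disease resistance genes.
miR390a-5p: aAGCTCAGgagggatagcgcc
miR390b-5p: aAGCTCAGgagggatagcacc
miR172a-3p: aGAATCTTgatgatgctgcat
miR172h-3p: tGAATCTTgatgatgctgcat
miR482a-3p: tTTCCAATtccacccattccta
miR482d-3p: cATCGATGacattggcaaggag

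The last set holds abundant or strongly differing sequences of other families.
miR160a-3p: gCGTATGAggagccaagcata
miR398c-5p: gGGGCAATctgagatcacatg
miR4376-5p: aCGCAGGAgagatgatgctgga
miR167a-5p: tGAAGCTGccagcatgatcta
miR166a-3p: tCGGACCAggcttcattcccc
miR166h-3p: tCGGACCAggcttcattcctc

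The 108 compared sequences held 83 distinct seeds, 0 of them shared between families. Among all 166 sequences with a tag in either library 1 seed, GATTGAG, was shared, by miR171 and by miR397b, which had 7 tags in flower. miR156a-5p and miR156h-5p have the same seed, as do the miR390 pair, the miR166 pair and the miR172 pair. The 2 miR482 sequences do not share one and are relatives by their name in the annotation only. Whether miR482d-3p acts on NLR genes was not tested. miR156d-5p is 20 nt long and its seed reads GACAGAA.

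The listed tags, each sequence counted once, summed to 678695 in flower and 311417 in fruit. Values were divided by these sums and are given as tags per 1000000 listed tags, called normalised tags. The file holds no hairpin total of 1 to 4 tags in either library, so a hairpin or family listed at 0 may stand for 1 to 4 tags. This does not extend to single sequences of a hairpin with tags, such as miR172h-5p, listed with 1 tag in fruit. There a listed 0 can be a count of 0, as for miR390a-3p in fruit, where miR390a-5p had 126 tags. No fold is given against a 0 in either case. A family or sequence was counted as higher in a tissue when its normalised tags were 2-fold or more above those of the other. Tags of unlisted RNAs are not in these sums, so a fold is a change relative to all other listed miRNAs. Fewer cells of a type and less RNA per cell cannot be told apart in whole tissues.

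By this measure 20 of 47 families (42.6%) were higher in fruit, 13 (27.7%) were higher in flower and 14 lay within 2-fold, so that 70.2% stood past 2-fold one way or the other. Of these, 4 of the 20 were listed at 0 in flower and 8 of the 13 at 0 in fruit, which leaves 16 and 5 with tags in both libraries. With a value of 0 taken as 4 tags, 20 were higher in fruit and 10 in flower. Tags in both libraries were listed for 35 families, and their median ratio was 1.82-fold higher in fruit. Median-of-ratios scaling, which sets that median to 1, shifts every log2 fold by -0.86. Under it 10 families (21.3%) were higher in fruit and 16 (34%) in flower. Leaving miR166 out of the sums shifts every log2 fold by 0.66 and gave 26 families higher in fruit and 10 in flower. The order of the families is the same under these 3 scalings and only the zero moves. For each family below the range over 4 ways of counting is added, the fourth being counts summed over all hairpins. Of the 35 families, 24 kept their direction in all 4 and 11 did not.

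**Figure D1:**
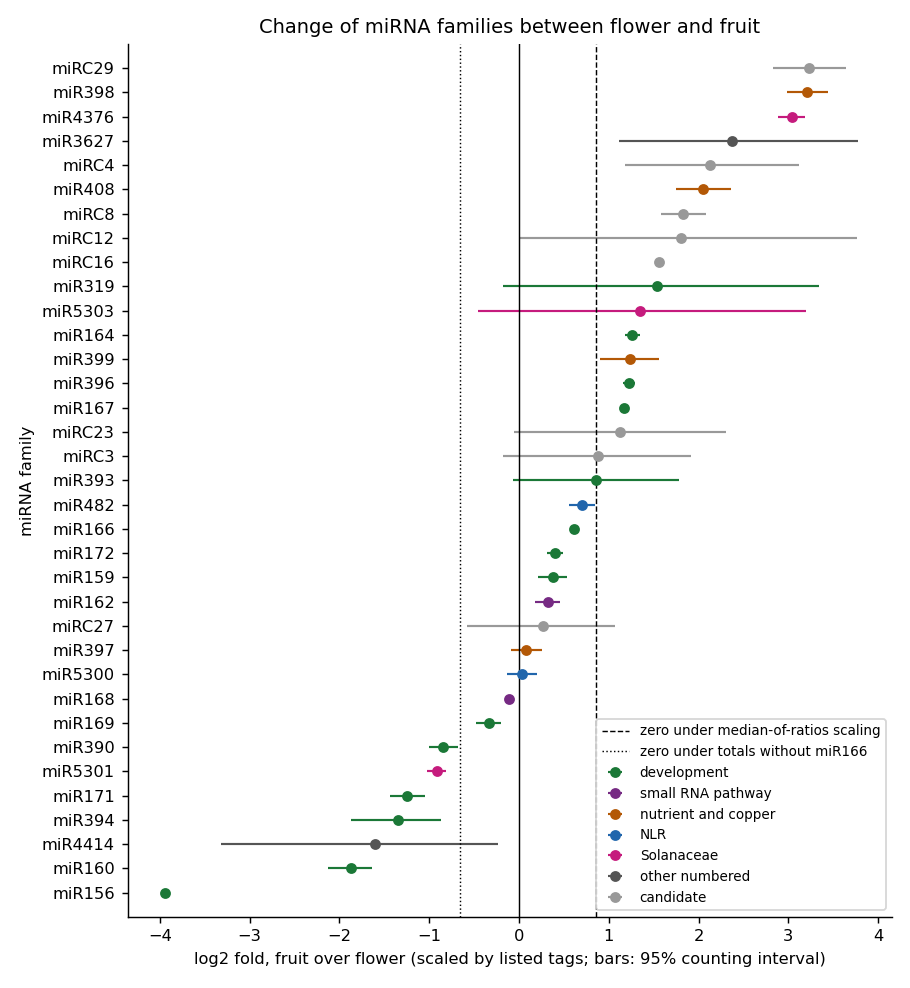
Log2 fold of fruit over flower for the 35 families with 10 or more tags and tags in both libraries, 1 point a family, with 95% counting intervals as bars and colours for the lists of families. miR156 lies at the flower end, 15.3-fold higher in flower, and miRC29, miR398 and miR4376 lie at the fruit end. The dashed and dotted lines show where zero falls under 2 other scalings.

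Both libraries were made up mostly of a few families, and their make-up differed chiefly in miR156. miR156 held 34.0% of the listed tags in flower and 2.22% in fruit. miR166, which targets class III HD-ZIP factors of organ polarity, held 40.7% in flower and 62.3% in fruit. miR167, a regulator of the auxin response factors ARF6 and ARF8, held 5.76% and 12.9%. Thus the shares of miR166 and miR167 were larger where that of miR156 was smaller. miR168, which targets AGO1, was close in both with 14.6% and 13.6%. The candidate family miRC16 held 1.21% and 3.54%. In each library 5 sequences held most of the tags, 91.2% in flower and 90.5% in fruit. The most abundant sequence was miR156a-5p in flower, with 32.2% of the tags, and miR166a-3p in fruit, with 34.4%.

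**Figure D2:**
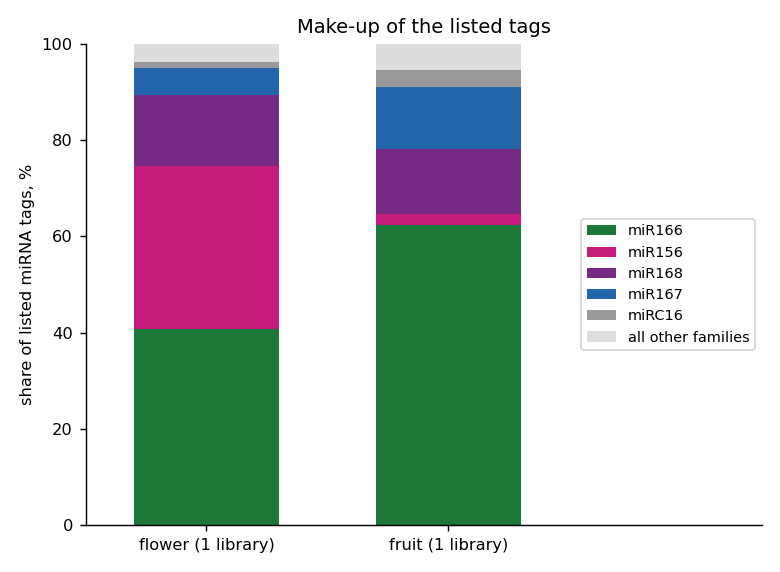
Share of the listed miRNA tags (%) by family in the flower and the fruit library, 1 library a bar, each bar adding to 100%. The band of miR156 takes 34.0% of the flower bar and 2.22% of the fruit bar.

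In miR156 the difference lay mainly in 1 sequence. The family had 230630 tags in flower and 6911 in fruit and was 15.3-fold higher in flower (interval 14.95 to 15.7, range 9.72 to 27.8). miR156a-5p, listed for the hairpins miR156a, miR156b and miR156c, had 218354 tags in flower and 2338 in fruit, which is 42.9-fold higher in flower (interval 41.1 to 44.7). Its 3 hairpins lie on chromosome 3 (5510596 to 5510715, minus strand, miR156b), on chromosome 2 (151332017 to 151332106, plus strand, miR156c) and on the sequence named Chr00 (miR156a), and their shared product cannot be assigned to 1 of them. The build of these coordinates is not stated in the sources used here. By contrast, miR156h-5p, from chromosome 9 (1598999 to 1599089, plus strand), had 6634 tags in flower and 3692 in fruit and was 1.21-fold higher in fruit (interval 1.16 to 1.26). miR156d-5p stood between them with 5610 and 873 tags, 2.95-fold higher in flower.

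Within the family, miR156a-5p made up 94.7% of the tags in flower and 33.8% in fruit, while miR156h-5p made up 2.88% and 53.4%. The most abundant miR156 sequence was thus a different one in each tissue. Counted from the 5′ end with the base of miR156a-5p first, miR156h-5p differs from it by T12G, A15T and C21T, all outside the seed. The fold of miR156h-5p was 52.0 times that of miR156a-5p (interval 49.1 to 55.0), a ratio that no scaling of the libraries alters. Without miR156a-5p the rest of the family had 12276 tags in flower and 4573 in fruit, 1.23-fold higher in flower (interval 1.19 to 1.27).

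Over all 5 libraries, miR156a-5p had its highest level in flower and its lowest in fruit. It stood at 321726 normalised tags in flower, 73706 in leaf, 70047 in root, 51234 in stem and 7508 in fruit. The gap between flower and fruit therefore combines a flower level above that of every vegetative library with a fruit level below all of them. miR156h-5p, with 9775 normalised tags in flower and 11856 in fruit, was lowest in leaf and highest in stem.

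The other regulators of development went in both directions. Of the 17 families of this list looked for, 14 were compared. Of these, 4 were higher in fruit (28.6%, beside 42.6% of all families), 4 in flower (28.6%, beside 27.7%) and 6 within 2-fold. Their median log2 difference was 0.39, beside 0.62 over all families compared, and became -0.47 under median-of-ratios scaling.

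Besides miR156, the families of this list higher in flower were miR160, miR394 and miR171. miR160, which targets the auxin response factors ARF10, ARF16 and ARF17, had 1223 tags in flower and 153 in fruit. This is 3.67-fold higher in flower (interval 3.10 to 4.37, range 2.33 to 6.66). Most of these tags were of miR160a-3p, the passenger strand, with 1179 and 139 tags. The guide strand miR160a-5p had 44 and 14 tags and was 1.44-fold higher in flower, with an interval of 0.776 to 2.85 that includes 1. miR394, which acts on the F-box gene LCR in stem cell maintenance, had 228 and 41 tags, 2.55-fold higher in flower (interval 1.82 to 3.65, range 1.62 to 4.63). miR171, a regulator of GRAS factors, had 1309 and 254 tags, 2.36-fold higher in flower (range 1.501 to 4.29). Its passenger strand miR171c-5p had 1055 and 152 tags, and the guide strand miR171c-3p, with 181 and 98, was 1.18-fold higher in fruit with an interval of 0.913 to 1.52 that includes 1.

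miR164, miR396, miR167 and miR319 were higher in fruit. miR164, which acts on NAC factors of organ boundaries, had 2190 tags in flower and 2407 in fruit, 2.40-fold higher in fruit (interval 2.26 to 2.54, range 1.32 to 3.77). miR396, which restrains growth-regulating factors, had 3342 and 3588 tags, 2.34-fold higher in fruit (range 1.29 to 3.69). For miR167 the tags were 39075 and 40262, 2.25-fold higher in fruit (range 1.24 to 3.54). In all 3 the raw counts were nearly equal, and the fold comes from the smaller listed sum of the fruit library. miR156 made up 34.0% of the flower sum and 2.22% of the fruit sum, and folds with miR156 left out of the sums were not computed. miR319, a regulator of TCP factors, had only 6 and 8 tags, with an interval that includes 1. The 6 tags in flower were of the passenger miR319b-5p and the 8 in fruit of the guide miR319a, so its fold compares different strands.

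Several development families lay near level or depended on the scaling. miR390 had 1535 tags in flower and 393 in fruit, 1.79-fold higher in flower. miR166, miR172, miR159 and miR393 were between 1.30-fold and 1.82-fold higher in fruit by listed totals, and their direction did not hold under every scaling. miR159 acts on GAMYB-like factors of anther development, and miR393 on the TIR1 and AFB auxin receptors. miR169, which targets NF-YA subunits, was 1.26-fold higher in flower.

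Ratios between families inside a library need no scaling. There were 32.0 miR167 tags for each miR160 tag in flower and 263.2 in fruit, a ratio 8.24 times as large in fruit (interval 6.96 to 9.75). Most of the miR160 tags were of the passenger miR160a-3p, so this is not a ratio of guide strands. The guide miR160a-5p had only 44 and 14 tags. For miR156 and miR172, known from Arabidopsis as families of opposite course during ageing, 82.5 miR156 tags were listed for each miR172 tag in flower and 4.09 in fruit, a 20.2-fold difference (interval 18.9 to 21.5). miR166 stood at 1.197 tags per miR156 tag in flower and at 28.1 in fruit. The large ratios with miR156 rest on the single sequence miR156a-5p described above.

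From the families studied in fruit growth and ripening of tomato, 8 were compared: miR156, miR159, miR160, miR164, miR167, miR172, miR393 and miR396. Of these 3 were higher in fruit (37.5%), 2 in flower (25%) and 3 lay within 2-fold, shares near those of all families. The median log2 difference was 0.62 by listed totals, the same as over all families, and -0.23 under median-of-ratios scaling.

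The families of the small RNA pathway itself were nearly level. miR162, which targets DCL1, had 1157 tags in flower and 662 in fruit, 1.25-fold higher in fruit. miR168 had 99401 and 42382 tags, 1.08-fold higher in flower. Both changed direction with the scaling. miR403, which targets AGO2, had fewer than 10 tags and was not compared.

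Copper-related families were among those with the largest excess in fruit. Of the nutrient and copper list 5 of 7 families were compared, with 3 higher in fruit (60%, beside 42.6% of all families), 1 in flower (20%, beside 27.7%) and 1 within 2-fold. miR398, which acts on copper/zinc superoxide dismutase, had 197 tags in flower and 835 in fruit, 9.24-fold higher in fruit (interval 7.90 to 10.8, range 5.09 to 14.6). Both strands of its hairpin on chromosome 12 (1699966 to 1700072, minus strand) were higher, miR398c-5p with 133 and 664 tags and the guide miR398c-3p with 64 and 159. miR408, which acts on copper proteins such as plantacyanin, had 139 and 265 tags, 4.15-fold higher in fruit (interval 3.37 to 5.14, range 2.29 to 6.55). Most of these were of the passenger strand miR408-5p, with 135 and 262 tags, while the guide miR408-3p had 4 and 3. miR397, which targets laccases and is also known as copper-related, was level with 838 and 407 tags, 1.06-fold higher in fruit.

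The phosphate family miR399, which targets PHO2, had 154 tags in flower and 166 in fruit, 2.35-fold higher in fruit with a direction that held in all 4 ways of counting. Most of these tags were of the passenger strand miR399e-5p, with 87 and 124. Its guide strands together had 58 and 36 tags, 1.35-fold higher in fruit with an interval of 0.867 to 2.09 that includes 1. The sulfate family miR395, which acts on ATP sulfurylase and a sulfate transporter, had 159 tags in flower and was listed at 0 in fruit.

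Of 3 families that target NLR genes, 0 were higher in fruit, beside 42.6% of all families. Higher in flower was 1 (33.3%, beside 27.7%), and 2 lay within 2-fold. miR482 had 887 tags in flower and 662 in fruit, 1.63-fold higher in fruit, and miR5300 had 929 and 436, 1.02-fold. Their direction depended on the scaling. miR1507, the 1 counted as higher in flower, had only 14 tags there and was listed at 0 in fruit, so that count rests on the 0. Of 3 Solanaceae families compared, 2 were higher in fruit (66.7%, beside 42.6% of all families), 0 in flower (beside 27.7%) and 1 within 2-fold. miR4376, known in tomato to act on a calcium ATPase, had 456 and 1716 tags, 8.20-fold higher in fruit (interval 7.39 to 9.11, range 4.52 to 12.9). Its hairpin lies on chromosome 6 (83173014 to 83173128, plus strand). miR5301 had 3793 and 922 tags, 1.89-fold higher in flower. miR5303 had only 6 and 7 tags and was 2.54-fold higher in fruit, with an interval of 0.732 to 9.16 that includes 1.

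The flower value of miR4376-5p was the lowest of the 5 libraries, and so were those of miR398c-5p and miR398c-3p. miR4376-5p stood at 672 normalised tags in flower and 5501 in fruit, against 23333 in root, 51212 in leaf and 93873 in stem. miR398c-5p stood at 196 in flower, 2132 in fruit, 2677 in root, 15341 in stem and 28271 in leaf. The fruit values of miR4376-5p and miR398c-5p were therefore below those of all 3 vegetative libraries, and their excess in fruit is relative to flower. miR398c-3p, with 511 normalised tags in fruit, stood above root (354) and below stem and leaf.

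Candidate families, those the annotation names miRC, gave 10 of 16 higher in fruit (62.5%, beside 42.6% of all families), 4 in flower (25%, beside 27.7%) and 2 within 2-fold. Their median log2 difference was 1.61, beside 0.62 over all families. Most candidate families had few tags, and their targets are not given. Of the 10 higher in fruit, 6 had tags in both libraries, and 2 of these were past 2-fold in all 4 ways of counting. miRC29 had 65 tags in flower and 279 in fruit, 9.35-fold higher in fruit (interval 7.12 to 12.5, range 5.15 to 14.7). miRC16 had 8180 and 11026 tags, 2.94-fold higher in fruit (range 1.62 to 4.63). miRC8 had 221 and 361, 3.56-fold, and miRC4 had 15 and 30, 4.36-fold. The 4 counted as higher in flower were all listed at 0 in fruit: miRC13, with 605 tags in flower, miRC18 with 204, miRC5 with 154 and miRC2 with only 12. Listed at 0 in flower were miRC7, with 126 tags in fruit, miRC17 with 18, miRC19 with 11 and miRC28 with 10. miRC12 and miRC23, also counted as higher in fruit, had 13 and 28 tags over both libraries. The interval of miRC23 (0.963 to 4.93) includes 1. miRC3 and miRC27, within 2-fold, had 35 and 59 tags.

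Of the 4 remaining numbered families compared, 1 was higher in fruit (25%, beside 42.6% of all families) and 3 in flower (75%, beside 27.7%). miR3627 had 8 tags in flower and 19 in fruit, 5.18-fold higher in fruit (interval 2.16 to 13.7). miR4414 had 33 and 5 tags, 3.03-fold higher in flower. miR6149, with 23 tags in flower, and miR477, with 12, were listed at 0 in fruit, and their count as higher in flower rests on that 0. Past 2-fold in all 4 ways of counting were miRC29, miR398, miR4376, miR3627, miRC4 and miR408 in fruit and miR156 and miR160 in flower.

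Of 108 distinct sequences compared, 31 (28.7%) were higher in fruit, 39 (36.1%) in flower and 38 lay within 2-fold, 64.8% standing past 2-fold. Listed at 0 in the other library were 4 of the 31 and 20 of the 39, which leaves 27 higher in fruit and 19 in flower with tags in both. With a value of 0 taken as 4 tags the counts were 31 and 31. This setting also replaced the 0 of sequences whose hairpin had tags on the other arm. Under median-of-ratios scaling 15 were higher in fruit and 50 in flower, and without miR166 in the sums 46 and 33. In 8 of 17 families with several compared sequences, members differed by 4-fold or more in their fold. These were miR156, miR162, miR166, miR172, miR390, miR396, miR399 and miR482, and in all of them but miR399 such a pair lay on the same arm. In miR166, miR172, miR390, miR396 and miR482, members stood past 2-fold in opposite directions by listed totals. Under median-of-ratios scaling no member of miR166 or miR396 was past 2-fold on the fruit side, and in miR172 only miR172a-5p was, with 2 and 9 tags. The ratio between the folds of 2 members is the same under each scaling.

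The miR390 guide strands differed in opposite directions, past 2-fold under each scaling. miR390a-5p, from chromosome 9 (136264496 to 136264603, minus strand), had 1362 tags in flower and 126 in fruit, 4.96-fold higher in flower (interval 4.13 to 6.001). miR390b-5p, from the sequence named Chr00, had 109 and 264, 5.28-fold higher in fruit (interval 4.21 to 6.66). They differ only by G19A, with the base of miR390a-5p first. Their folds were 26.2 times apart (interval 19.6 to 34.9). The 1.79-fold of the whole family is thus the sum of 2 opposite differences. Over the 5 libraries miR390a-5p was lowest in fruit and miR390b-5p lowest in flower.

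In miR482, miR482a-3p had 112 tags in flower and 431 in fruit, 8.39-fold higher in fruit (interval 6.80 to 10.4). miR482d-3p had 325 and 21, 7.10-fold higher in flower (interval 4.57 to 11.6), and miR482b-3p was level with 394 and 187. The folds of the first pair were 59.6 times apart (interval 36.6 to 97.0), while the family as a whole was within 2-fold. Their hairpins lie on chromosome 10 (41974898 to 41974994, minus strand) and chromosome 9 (235022696 to 235022801, plus strand). miR482d-3p was higher in flower than in any other library.

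In miR172, miR172a-3p had 1179 tags in flower and 1213 in fruit, 2.24-fold higher in fruit. miR172e-3p had 789 and 376 and was level, and miR172h-3p had 386 and 31, 5.71-fold higher in flower (interval 3.96 to 8.53). miR172h-3p differs from miR172a-3p only by A1T, the base of miR172a-3p first, next to the seed and not in it. Their folds were 12.8 times apart (interval 8.81 to 18.6). In the abundant miR166 the pair with C20T, miR166a-3p and miR166h-3p, differed little: miR166a-3p was 1.26-fold higher in fruit with 185804 and 107159 tags, and miR166h-3p was 2.12-fold higher with 86498 and 84237. The miR164 pair was higher in fruit in both members, 2.29-fold for miR164a-5p and 3.69-fold for miR164b-5p.

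**Figure D3:**
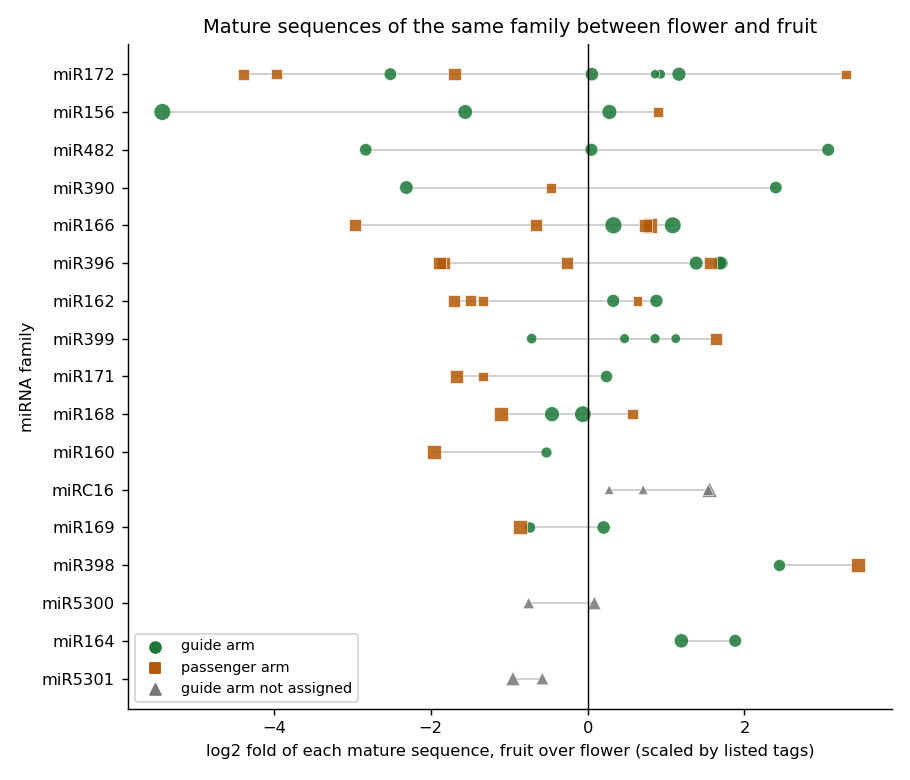
Log2 fold of fruit over flower for each compared mature sequence with tags in both libraries in the 17 families with several of them, 1 marker a sequence, larger for more tags, with shape and colour for the arm. miR390, miR482 and miR172 hold guide arm sequences far apart on both sides of zero. Those of miR156 run from the far flower side to just above zero. miR482a-3p and miR482d-3p do not share a seed and are relatives by name only.

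By number of compared sequences, passenger strands were more often on the flower side than guide strands. With guide arms taken from background knowledge, 12 of 40 guide sequences were higher in fruit (30%), 9 in flower (22.5%) and 19 lay within 2-fold. For 36 passenger sequences the counts were 6 (16.7%), 20 (55.6%) and 10. Over all sequences compared the shares were 28.7% and 36.1%. Of these, 3 guide and 7 passenger sequences were listed at 0 in fruit, where the listed sum is smaller, and entered through their flower tags alone. With tags in both libraries, 6 of 37 guide sequences were higher in flower and 12 in fruit. For passenger sequences, 13 of 28 were higher in flower and 5 in fruit. Over all 23 families with an assigned guide arm, passenger strands made up 1.75% of the tags in flower and 1.84% in fruit. Without miR166 and miR156 they made up 4.97% of the tags in flower and 2.80% in fruit.

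The guide share within a family does not depend on the scaling. It was higher in fruit in 10 of the 14 families compared and lower in 4. In miR172 it was 84.7% in flower and 96.6% in fruit, and in miR162 it was 75.4% and 93.1%. In miR396 it went from 68.6% to 87.5%, and in miR169 from 47.7% to 65.6%. In miR171 it was 16.0% and 38.6% when a sequence was counted once, and 46.1% and 75.7% with counts summed over hairpins. The fold of the guide strands was 5.07 times that of the passenger strands in miR172 (interval 3.83 to 6.72) and 3.20 times in miR396 (interval 2.83 to 3.62). miR390, miR160, miR168 and miR482 also had a higher guide share in fruit, with intervals that exclude equal folds. miR167a-3p, the passenger of miR167, had 16 tags in flower and was listed at 0 in fruit.

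The opposite was seen in miR398, where the guide share was 32.5% in flower and 19.8% in fruit, and in miR399, where it was 37.7% and 21.7%. Both families were higher in fruit as a whole. In miR156 the guide share was above 99% in both, and miR166 had 98.6% in both. In miR396 the arms went apart in some hairpins and not in others. miR396a-5p, a sequence also listed for the hairpin miR396b, had 940 and 1126 tags, 2.61-fold higher in fruit. miR396a-3p had 347 and 43, 3.70-fold higher in flower, and miR396b-3p was 3.58-fold higher in flower. In miR396c both arms were higher in fruit, 3.22-fold for the 5p and 2.95-fold for the 3p sequence. miR396d-5p was 3.26-fold higher in fruit and miR396d-3p lay within 2-fold. Large differences among passenger sequences were those of miR172e-5p, with 91 and 2 tags, miR166e-5p, with 204 and 12, and miR172h-5p, with 34 and 1.

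**Figure D4:**
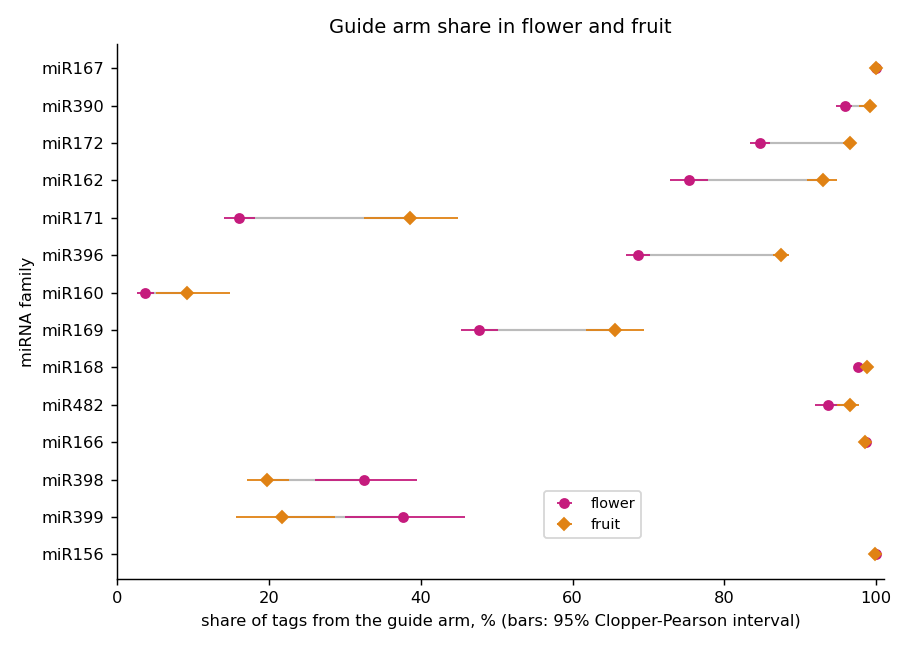
Share of a family's tags that came from its guide arm (%) in flower and in fruit for 14 families, with 95% Clopper-Pearson intervals as bars. The fruit marker lies to the right of the flower marker in 10 families and to the left in 4, with miR398 and miR399 the clearest of the latter.

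Nearly all tags of both libraries were of 1 length. Sequences of 21 nt made up 98.6% of the tags in both libraries. Those of 22 nt, the length known in plants to trigger secondary small RNAs, made up 0.385% in flower and 0.945% in fruit, most of them miR4376-5p, miR482 and miR5300. Those of 20 nt made up 0.935% and 0.323%. Of 7 compared sequences of 20 nt, 6 were higher in flower (85.7%, beside 36.1% of all sequences) and 0 in fruit (beside 28.7%), and 3 of the 6 were listed at 0 in fruit. A first U, the base AGO1 prefers, was on 96.6% of the tags in flower and 93.6% in fruit, and a first A on 1.87% and 4.81%. The most abundant sequence beginning with A was miRC16-5p.1, with 8122 and 10959 tags.

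Set beside the other pairs of libraries, flower and fruit did not stand out. The share of families past 2-fold was 70.2% between flower and fruit and 58.3% to 84.3% in the 9 other pairs. Under median-of-ratios scaling it was 55.3%, just below the 55.6% to 81.25% of the others. These pairs share libraries and are not independent.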

How the data were processed

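Small RNA libraries of flower and fruit, 1 each, were analysed from the deposited annotation. Per the file headers it is in GFF version 3 and was written by a plant setting of mireap, and each mature sequence carries a deposited whole-number tag count for each library, with no scaling recorded. In the sources used here the genome build, aligner, trimming and total library depth are not stated, so precision is known only from the listed tags, 678695 in flower and 311417 in fruit. The annotation had 176 precursor lines, 165 of them distinct, and the family was taken from the parent hairpin. A sequence listed on several hairpins (36 sequences) was counted once per family with its highest count; for 14 of them the flower or fruit counts differed between hairpins.

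Families and sequences with fewer than 10 tags over both libraries were left out of counts. Counts were divided by the listed sum. Log2 differences of lists used a pseudocount of 1 normalised tag. Intervals of folds come from the exact binomial split of the tags, those of ratios of folds from Woolf's log-scale formula, and those of shares are Clopper-Pearson, all at 95%. Calculations used Python 3.11.15, scipy 1.17.1 and pandas 2.3.3, with figures by matplotlib 3.10.9, and were tested on simulated counts. For 23 families the guide arm was assigned from background knowledge.

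Named were the 10 most abundant families, the 10 each way with the largest fold, those with 10 or more tags in 1 library and 0 in the other, all families of the lists, and the sequences of largest fold or in families whose sequences differed 4-fold or more. Members and lists were chosen with earlier results of these data known. Alternatives covered scaling, the count of repeated sequences, the tag minimum, the fold, the pseudocount, zeros taken as 4 tags, and guide arms only.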

Additional observations from a re-analysis of the deposited data

How the results depend on the processing

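No paired analysis was possible because each tissue has 1 library, and for the same reason no replicate could be left out. The families higher in fruit numbered 20, and 10 under median-of-ratios scaling, 11 with a minimum of 50 tags, 10 at a fold of 4 and 4 with guide arms only (19 families). The 13 families higher in flower became 8 with a minimum of 50 tags and 3 with guide arms only. For sequences, 31 were higher in fruit, and 15 under median-of-ratios scaling, 14 at a fold of 4 and 52 with no minimum. The 39 higher in flower became 22 with a minimum of 50 tags and 67 with no minimum. Median log2 differences under median-of-ratios scaling were -0.47 for development, 0.37 for nutrient and copper and -0.83 for NLR families, and turned to -0.23 for fruit families and -0.75 for the small RNA pathway. That scaling shifts every family alike. Without miR166 in the sums they were 1.04 for development, 1.28 for fruit, 0.76 for the small RNA pathway, 1.89 for nutrient and copper, 0.69 for NLR and 2.29 for candidates. With no minimum the small RNA pathway turned to -0.11, as miR403 then enters. The share of miR166 was 59.1% in flower and 77.9% in fruit when summed over hairpins, and 38.9% and 61.0% with the lowest count of a repeated sequence. That of miR156 was 28.3% and 1.16% summed over hairpins, 35.02% and 2.298% with the lowest count, and 57.3% and 5.89% of the tags without miR166. miR171 turned to 1.02-fold higher in fruit with guide arms only, and miR319 turned with the lowest count, where it is listed at 0. Of the other values for single families and arms, 172 stayed within their counting interval and 125 moved. Families with few tags are limited by counting error, and the 2 libraries give no measure of variation between plants.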
